A study of Mus musculus with 16 samples.

Results

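The tumour necrosis factor (TNF) superfamily ligands and receptors were followed in spleen cells of mice treated with imiquimod, across 8 groups of genotype and day. Members were chosen by symbol: every symbol that begins with Tnfsf or Tnfrsf, together with Tnf, Lta, Ltb, Cd40, Cd40lg, Fas, Fasl, Cd27, Cd70 and Ltbr. The rule found 43 of the 55291 symbols in the deposited tables, comprising 18 ligands, 24 receptors and 1 antisense RNA (Tnfsf13os). These symbols covered 136 of 142604 transcripts. For each symbol the transcript with the highest mean fragment count over the 16 libraries was kept. This choice compared no groups, although high counts in 1 group or in a deep library can raise the mean.

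TNF superfamily ligands are trimeric proteins, mostly anchored in the cell membrane, and some, such as TNF, are also released after cleavage. Their receptors fall into those with a cytoplasmic death domain, such as Tnfrsf1a and Fas, those that bind TRAF adaptors and feed the NF-kB pathways, such as Cd40 and Tnfrsf9, and decoy receptors that bind ligand without a full signalling tail. In the spleen the family is known for the lymphotoxin signals that keep the white pulp in order, for the BAFF and APRIL signals that keep B cells and plasma cells alive, and for costimulation between T cells and antigen-presenting cells.

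The animals were male C57BL/6 mice, either wild type or PKR KO (knockout of Eif2ak2, which encodes the double-stranded RNA-activated kinase PKR). Daily imiquimod cream, 62.5 mg of a 5% preparation, went onto shaved back skin. The day 0 groups had 0 mg of cream, and no group had cream without imiquimod. Comparisons with day 0 therefore cannot tell imiquimod apart from the cream or its application. Imiquimod activates Toll-like receptor 7, and the treatment is a common mouse model of psoriasis. Groups were wild type on days 0, 1, 2 and 5 and PKR KO on days 0, 1, 2 and 5, with 2 libraries each, and each library pooled RNA of 2 spleens from different mice. Spleens were made into cell suspensions and red cells were lysed before RNA extraction, so the libraries represent suspended spleen cells and not whole tissue; age and the origin of the knockout line are not given in the labels. Total RNA was depleted of ribosomal RNA and sequenced from a stranded kit.

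Library totals ran from 35026754 to 67333830 fragments. Levels below are adjusted FPKM. This is the deposited FPKM scale, fragments relative to transcript length and library total, after scaling by edgeR's TMM factors. Eif2ak2 stood at 5.72 and 5.99 in the wild-type day 0 libraries and at 2.83 and 3.46 in the knockout ones. On day 1 it stood at 23.4 and 22.4 in wild type and 10.1 and 8.53 in knockout. On day 5 the values were 6.80 and 6.98 in wild type and 3.68 and 4.39 in knockout. On day 2 the library labelled PKR KO day 2 replicate 1 held 11.1, above both wild-type day 2 libraries (7.64 and 10.04), and replicate 2 held 5.15. That library goes against its genotype label on this check. Changes of members between days 0 and 2 in knockout, and the counts of members called in comparisons of days that use it, are therefore given with and without it. B cell markers were abundant in every library (10 genes, summed level 571.5 to 1101), as were T cell markers (13 genes, 38.0 to 299.2) and neutrophil markers (10 genes, 255.1 to 2034). The same 10 B cell markers and 13 T cell markers were detected in every group. Of 10 endothelial and stromal markers, Pdpn was at 0 in 5 of 8 groups and Ccl21a in the knockout day 1 group. The summed level of these 10 was 18.9 to 31.8 over the libraries.

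Ltb was the most abundant member before treatment, with a group mean of 89.0 adjusted FPKM in wild type and 80.1 in knockout. Next in the order on day 0 came Tnfrsf13c with means of 38.6 and 40.8, Tnfrsf13b with 20.7 and 19.4, and Tnfrsf1b with 15.2 in each genotype. The libraries of these 4 members did not overlap on day 0. By contrast, Tnfrsf14 (11.6 in wild type, 9.56 in knockout) and Cd27 (12.5 and 11.4) overlapped in wild type. In all, 8 members had a group mean of 10 or more, 19 had their highest group mean between 1 and 10, and 16 stayed under 1 in every group. Cd70, the ligand of Cd27, and Tnfrsf11b, the decoy receptor osteoprotegerin, were too low to test, which left 41 members tested (17 ligands, 23 receptors and the antisense RNA). Cd70 had 9 fragments in all 16 libraries and 0 in 11 of them, where a count of 0 allows a level of up to 0.0462 to 0.108 adjusted FPKM depending on the library (3 fragments, counting error only). The summed level of all members was 298 and 229.9 in the wild-type day 0 libraries, then 254 and 255 on day 1, 172 and 165 on day 2, and finally 218 and 194 on day 5. In knockout the sums were 268 and 231, then 240.1 and 223, 163 and 164, and finally 219 and 231 on the same days, and in both genotypes the day 2 libraries were the lowest.

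The level of a gene here is the level of a single transcript. The deposited counts let a fragment count in every isoform it overlaps, so isoforms of a gene are not independent. For 6 members the kept transcript is not typed as protein coding in GENCODE M21: those of Fas and Tnfrsf23 are typed as targets of nonsense-mediated decay, that of Ltb as a retained intron, that of Tnfrsf4 as a processed transcript, Tnfsf13os is antisense, and the Tnfsf15 transcript is not in that release. Tnfsfm13 is a read-through transcript on chromosome 11 that shares exons with Tnfsf12 and Tnfsf13, and Tnfsf13os lies on the opposite strand of the same stretch. How strand entered the counting is not given in the sources used here, so reads of these 4 members cannot be told apart with certainty. Tnfrsf22, Tnfrsf23 and Tnfrsf26 are neighbouring paralogs within chr7:143607663-143685872 (mm10), where reads may be shared.

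**Figure D1:**
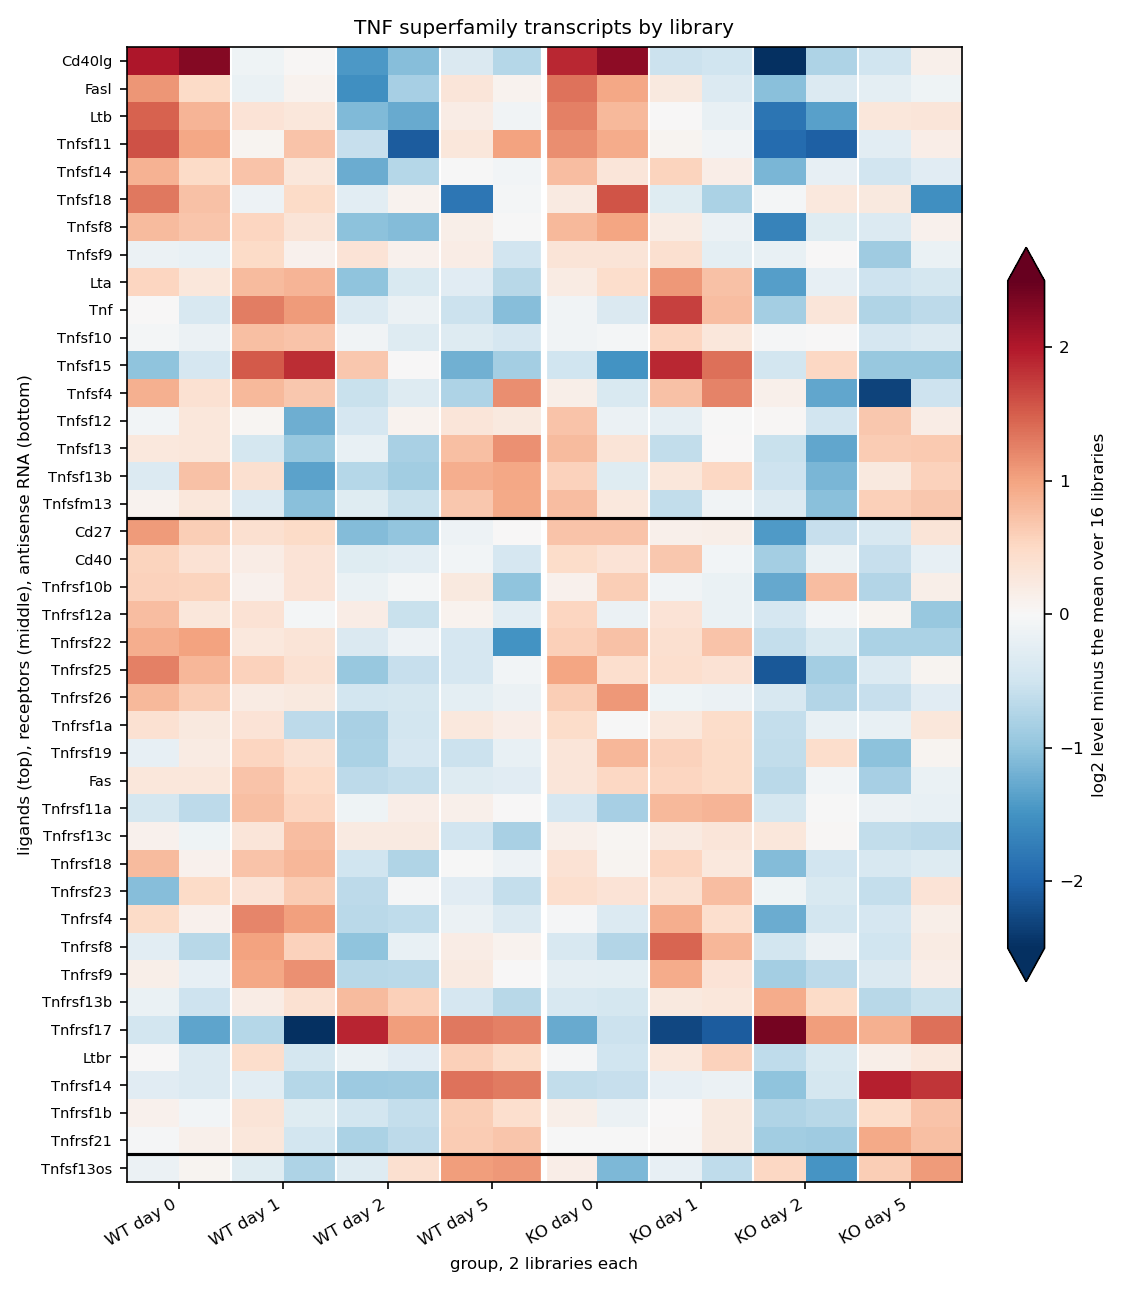
Level of the 41 tested members in each of the 16 libraries, as the log2 adjusted FPKM minus the member's mean over all libraries (colour scale, extended at both ends), with ligands above the upper line, receptors below it and the antisense RNA at the bottom. Each column is a library, and 2 neighbouring columns make a group. Day 0 columns are mostly red for Cd40lg, Fasl, Ltb and Cd27, day 1 columns for Tnf, Tnfsf15 and Tnfrsf9, day 2 columns are blue for most members except Tnfrsf13b and Tnfrsf17, and day 5 columns are red for Tnfrsf14.

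Promoter sequence is shown for 4 members, because they carry the main patterns by day: Tnfrsf9 (highest on day 1), Ltb (highest on day 0), Tnfrsf17 (highest on day 2) and Tnfrsf14 (highest on day 5). Each line gives the 250 bases before the RefSeq start on GRCm38.p6 (the mm10 build), read 5′ to 3′ on the gene's strand, with matches to the 3 searched motifs in capitals. The start of the kept transcript lies 0 bases from the RefSeq start for Tnfrsf9 and Tnfrsf14, 3 for Tnfrsf17 and 16 for Ltb. The motifs were GGGNNTTTCC, a form of the NF-kB site; GAAANNGAAA, a form of the interferon-stimulated response element; and TGANTCA, the AP-1 site, each on both strands, with N for any base and overlaps between motifs allowed.
Tnfrsf9 (chr4:150927749-150927998, plus strand): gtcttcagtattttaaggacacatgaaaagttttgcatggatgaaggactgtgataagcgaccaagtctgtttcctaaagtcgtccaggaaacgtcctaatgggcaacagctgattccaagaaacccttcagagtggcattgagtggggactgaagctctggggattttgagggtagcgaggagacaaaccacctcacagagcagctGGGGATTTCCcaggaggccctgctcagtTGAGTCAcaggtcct
Ltb (chr17:35194257-35194506, plus strand): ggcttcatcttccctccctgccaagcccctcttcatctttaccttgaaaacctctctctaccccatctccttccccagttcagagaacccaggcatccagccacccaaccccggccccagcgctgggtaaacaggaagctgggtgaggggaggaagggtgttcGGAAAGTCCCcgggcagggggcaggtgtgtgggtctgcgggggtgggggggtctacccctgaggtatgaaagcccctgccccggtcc
Tnfrsf17 (chr16:11313559-11313808, plus strand): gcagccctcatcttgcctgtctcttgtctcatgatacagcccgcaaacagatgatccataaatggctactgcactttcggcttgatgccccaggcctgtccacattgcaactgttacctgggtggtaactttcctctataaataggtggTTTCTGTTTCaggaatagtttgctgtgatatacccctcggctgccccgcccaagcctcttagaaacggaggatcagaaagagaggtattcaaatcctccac
Tnfrsf14 (chr4:154928078-154928327, minus strand): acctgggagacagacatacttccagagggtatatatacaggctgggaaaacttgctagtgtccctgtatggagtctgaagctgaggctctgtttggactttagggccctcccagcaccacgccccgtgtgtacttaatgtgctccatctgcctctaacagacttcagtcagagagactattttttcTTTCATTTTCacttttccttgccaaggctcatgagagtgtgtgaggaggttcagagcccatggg

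Of the 43 members, 32 matched a RefSeq promoter. GGGNNTTTCC was present in 2 of them (Tnfrsf9 and Ltb, 6.25%), and in 1.41% of 32851 promoters of the same length. GAAANNGAAA was present in 4 (Tnfrsf14, Tnfrsf17, Tnfrsf1b and Tnfsf13b, 12.5%), against 2.98% of all promoters. TGANTCA was present in 6 (Fas, Tnfrsf8, Tnfrsf9, Tnfsf13, Tnfsf13b and Tnfsf14, 18.8%), against 6.75%. In Tnfrsf9 the capitals begin 43 bases (GGGNNTTTCC) and 15 bases (TGANTCA) before the start. In Ltb they begin 87 bases before it, in Tnfrsf17 101 bases and in Tnfrsf14 64 bases before it. The 4 promoters shown all have a match, which other members with the same day patterns often lack. Among members that rose on day 1 in both genotypes, Tnfrsf8 and Tnfrsf9 had a match to a searched motif. Tnf, Tnfsf10, Tnfsf15, Tnfrsf4, Tnfrsf11a and Tnfrsf13b, the last also highest on day 2, had none. A match describes these letters and does not show that a factor binds.

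Treatment was compared with day 0 within each genotype by edgeR's quasi-likelihood test over 18789 genes, with a call at a Benjamini-Hochberg adjusted p under 0.05. On day 1, 9 of the 41 tested members rose and 7 fell in wild type, a share of 22.0% higher and 17.1% lower, against a background of 23.3% and 21.4% of all genes. In knockout 10 rose and 8 fell on day 1 (24.4% and 19.5%), against 22.1% and 19.5%, so the number of calls on day 1 was near the background in both genotypes. On day 2 wild type had 3 higher and 21 lower (7.32% and 51.2%), against 23.9% and 21.3% of all genes, and knockout 2 higher and 18 lower (4.88% and 43.9%), against 26.2% and 23%. Without the library labelled PKR KO day 2 replicate 1, the knockout day 2 split was 2 higher and 16 lower (4.88% and 39.0%), against 19.5% and 19.9% of all genes. On day 5 wild type had 6 higher and 12 lower (14.6% and 29.3%), against 22.4% and 17.0%, and knockout 4 higher and 16 lower (9.76% and 39.0%), against 24.2% and 20.3%. The median log2 change of the members in wild type was -0.17 on day 1, -0.75 on day 2 and -0.38 on day 5, beside -0.04, -0.02 and 0.01 over all genes. In knockout the medians were -0.05, -0.63 and -0.56, beside -0.00, 0.01 and 0.01. On the deposited FPKM scale with limma, which lacks the TMM scaling and tested 28 members, the wild-type day 1 split was 9 higher and 2 lower, and the median of all genes stood at 0.29. All genes split 5658 higher and 1391 lower there. In knockout the member split was 8 higher and 4 lower, the median of all genes 0.14, and their split 4211 higher and 2149 lower.

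The comparisons of days 1, 2 and 5 within a genotype share its day 0 libraries. The 2 genotypes do not share control libraries, and their calls were set side by side. On day 1, 8 members rose in both genotypes, 88.9% of the 9 wild-type calls and 80% of the 10 knockout calls, and 6 fell in both (85.7% of 7 and 75% of 8). On day 2, 2 rose in both (66.7% of 3 and 100% of 2) and 17 fell in both (81.0% of 21 and 94.4% of 18). These day 2 counts include the library labelled PKR KO day 2 replicate 1. Without it Fas and Lta, both among the 17, were not called in knockout. On day 5, 4 rose in both (66.7% of 6 and 100% of 4) and 12 fell in both (100% of 12 and 75% of 16). On each of the 3 days 0 members were called in opposite directions. Over all genes, the calls shared on day 1 were 74.6% of the wild-type and 78.6% of the knockout calls for rises, and 58.9% and 64.4% for falls. On day 2 these shares were 88.5% and 80.5% for rises and 82.6% and 76.4% for falls, and on day 5 they were 82.6% and 76.5% for rises and 77.9% and 65.4% for falls. Whether members differed from all genes in these shares was not tested. The day of the highest group mean was the same in both genotypes for 37 of 41 members, and the day of the lowest for 30. Day 2 held the lowest mean of 25 members in wild type, of 24 in knockout and of 20 in both, with the labelled library included.

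**Figure D2:**
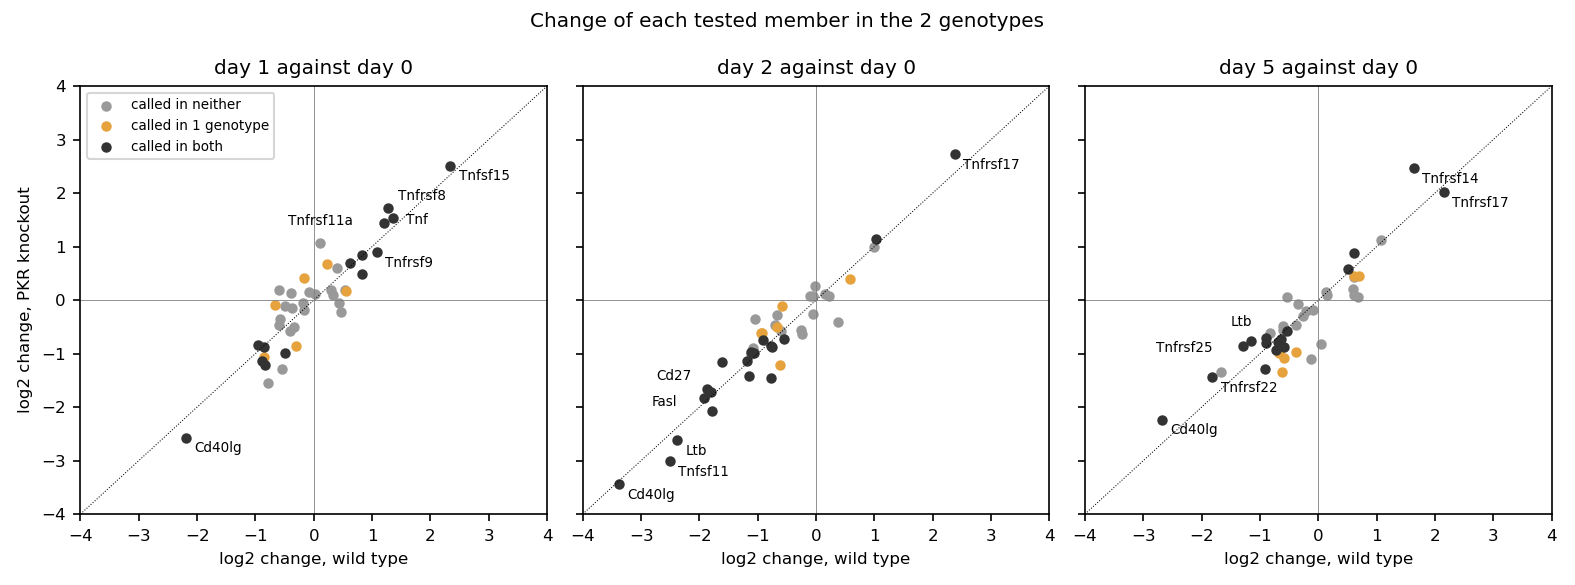
Log2 change of each of the 41 tested members against day 0 in wild type (horizontal axis) and PKR knockout (vertical axis), on days 1, 2 and 5. Black points were called in both genotypes, orange points in 1 and grey points in neither, the dotted line marks equal change, and the 6 members called in both with the largest wild-type change are named. Cd40lg lies lowest on both axes in each panel. Tnfsf15 on day 1 and Tnfrsf17 on day 2 lie highest on both axes, and on day 5 Tnfrsf17 lies highest in wild type and Tnfrsf14 in knockout.

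Among the ligands, Tnf, Tnfsf10 and Tnfsf15 rose on day 1 in both genotypes. Tnf, the inflammatory cytokine that gives the family its name (chr17:35199381-35202007, minus strand), stood in wild type at 5.38 and 4.04 on day 0, then 12.9 and 11.2 on day 1, 4.19 and 4.84 on day 2, and finally 3.65 and 2.56 on day 5. Knockout libraries held 4.98 and 4.15 on day 0, then 17.5 and 9.13 on day 1, 2.97 and 6.59 on day 2, and finally 3.15 and 3.40 on day 5. On day 1 both libraries of each genotype lay above both day 0 libraries, and the day 2 libraries lay on both sides of the day 0 range in knockout and within it in wild type. The day 1 difference in Tnf was 1.36 on the log2 scale (SE 0.36, adjusted p = 0.0115) in wild type and 1.54 on the log2 scale (SE 0.37, adjusted p = 0.00681) in knockout by edgeR's quasi-likelihood test. In wild type the call ended without wild-type day 0 replicate 2 (adjusted p = 0.105) or wild-type day 1 replicate 1 (0.0535), and in knockout without knockout day 0 replicate 2 (adjusted p = 0.0588), with adjusted p-values of 4.04e-05 to 0.105 and 2.82e-06 to 0.0588 over the alternatives.

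Tnfsf10, the death ligand TRAIL (chr3:27317028-27339665, plus strand), had wild-type levels of 1.34 and 1.25 on day 0, then 2.33 and 2.27 on day 1, 1.30 and 1.11 on day 2, and finally 1.11 and 1.04 on day 5. In knockout it had 1.29 and 1.33 on day 0, then 2.004 and 1.68 on day 1, 1.36 and 1.40 on day 2, and finally 1.04 and 1.09 on day 5. Day 1 was the highest day in both, and the wild-type day 1 libraries lay above the knockout ones. The day 1 change was 0.83 on the log2 scale (SE 0.14, adjusted p = 0.000152) in wild type. In knockout it was 0.49 on the log2 scale (SE 0.15, adjusted p = 0.0120). The wild-type call was kept under every alternative run. The knockout call ended without knockout day 0 replicate 1 (adjusted p = 0.0608) or knockout day 1 replicate 1 (0.161), in a range of 0.00932 to 0.161 over its alternatives. Tnfsf15, which encodes TL1A, the ligand of Tnfrsf25, was low throughout (0.0216 to 0.222 adjusted FPKM, 5 to 97 fragments a library). Its wild-type libraries went from 0.0301 and 0.0449 on day 0 to 0.175 and 0.216 on day 1, and its knockout libraries from 0.0425 and 0.0216 to 0.222 and 0.157, without overlap. That made it the member with the largest log2 rise on day 1, 2.34 (SE 0.40, adjusted p = 0.000148) in wild type and 2.51 (SE 0.44, adjusted p = 0.000171) in knockout by edgeR, and both calls were kept under every alternative run.

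The receptors that rose on day 1 in both genotypes were Tnfrsf4, Tnfrsf8, Tnfrsf9, Tnfrsf11a and Tnfrsf13b. Tnfrsf9, the costimulatory receptor 4-1BB of activated T and NK cells (chr4:150927999-150946102, plus strand), had wild-type levels of 1.95 and 1.51 on day 0, then 3.44 and 3.85 on day 1, 1.08 and 1.10 on day 2, and finally 2.04 and 1.76 on day 5. Knockout levels were 1.504 and 1.47 on day 0, then 3.33 and 2.21 on day 1, 0.970 and 1.12 on day 2, and finally 1.37 and 1.97 on day 5. The day 1 libraries were the highest of each genotype and the day 2 libraries the lowest. Its day 1 change was 1.08 on the log2 scale (SE 0.21, adjusted p = 0.000563) in wild type, kept under every alternative run. In knockout it was 0.89 on the log2 scale (SE 0.22, adjusted p = 0.00354), and the call ended without knockout day 1 replicate 1 (adjusted p = 0.101), with a range of 0.000498 to 0.101 in adjusted p over its alternatives (ranges below are likewise).

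Tnfrsf4, the T cell costimulatory receptor OX40 (chr4:156013856-156016599, plus strand), stood at 4.61 and 3.55 on day 0, then 7.68 and 6.72 on day 1, 2.07 and 2.13 on day 2, and finally 2.98 and 2.62 on day 5 in wild type. In knockout the libraries held 3.24 and 2.63 on day 0, then 6.21 and 4.41 on day 1, 1.41 and 2.41 on day 2, and finally 2.48 and 3.69 on day 5. Day 1 was above day 0 without overlap and day 2 below it. On day 1 the change was 0.82 on the log2 scale (SE 0.24, adjusted p = 0.00921) in wild type and 0.85 on the log2 scale (SE 0.25, adjusted p = 0.0106) in knockout. The wild-type call ended without wild-type day 0 replicate 2 (adjusted p = 0.108) or wild-type day 1 replicate 1 (0.0603), with a range of 0.000372 to 0.108. In knockout the Tnfrsf4 call ended without knockout day 0 replicate 2 (adjusted p = 0.0951) or knockout day 1 replicate 1 (0.152), with a range of 0.00104 to 0.152. Tnfrsf11a, the receptor RANK of osteoclast precursors and dendritic cells (chr1:105780718-105847981, plus strand), had 0.458 and 0.398 on day 0, then 1.05 and 0.910 on day 1, 0.578 and 0.700 on day 2, and finally 0.680 and 0.626 on day 5 in wild type. The knockout values were 0.465 and 0.350 on day 0, then 1.10 and 1.13 on day 1, 0.459 and 0.618 on day 2, and finally 0.565 and 0.551 on day 5. All 4 day 1 libraries exceeded all 12 others, and the day 1 change was 1.20 on the log2 scale (SE 0.20, adjusted p = 0.000132) in wild type and 1.44 on the log2 scale (SE 0.21, adjusted p = 2.61e-05) in knockout. Tnfrsf8, the activation antigen CD30, ranged from 0.189 to 1.03 and changed by 1.27 and 1.72 on the log2 scale (adjusted p = 0.00292 and 0.000334 by edgeR). The calls of Tnfrsf11a and Tnfrsf8 on day 1 were kept under every alternative run in both genotypes. These rises stood beside higher proliferation markers (8 of 8 called higher on day 1 in each genotype, summed level from 42.6 and 58.1 to 208 and 217 between days 0 and 1 in wild type) and lower T cell markers (7 of 13 called lower in wild type and 12 of 13 in knockout). The wild-type proliferation sum was higher still on day 2 (346.5 and 353.8) and day 5 (377 and 402). By contrast, Tnfrsf4, Tnfrsf8, Tnfrsf9 and Tnfrsf11a had lower group means on those days than on day 1 in both genotypes. The part of either marker list in the rises was not tested.

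**Figure D3:**
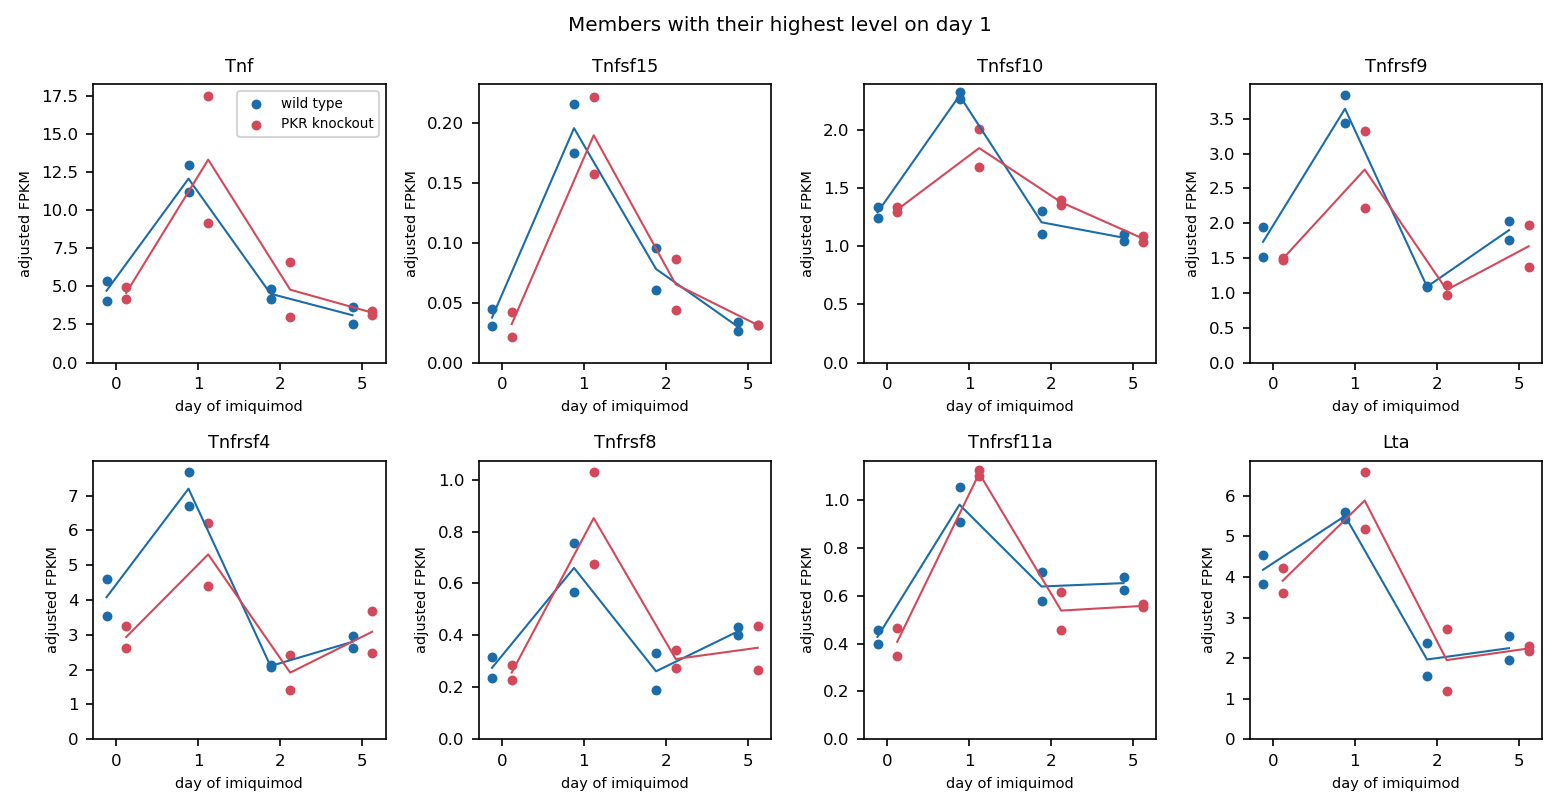
Adjusted FPKM (vertical axes, from 0) of 8 members by day of imiquimod, with a point for each library, wild type in blue and PKR knockout in red, and lines through the group means. For Tnf, Tnfsf15, Tnfsf10, Tnfrsf9, Tnfrsf4, Tnfrsf8 and Tnfrsf11a both day 1 libraries of each genotype lie above both day 0 libraries; Lta has its highest group means on day 1 with no call in either genotype.

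Against day 0 the other ligands fell or did not pass the test. In bulk samples such as these, fewer cells of a type and less RNA per cell cannot be told apart. Cd40lg, the T cell ligand that licenses B cells and dendritic cells through Cd40 (chrX:57212143-57224042, plus strand), had wild-type levels of 3.37 and 4.04 on day 0, then 0.764 and 0.850 on day 1, 0.305 and 0.398 on day 2, and finally 0.649 and 0.507 on day 5. Knockout levels were 3.06 and 3.9 on day 0, then 0.574 and 0.586 on day 1, 0.137 and 0.488 on day 2, and finally 0.583 and 0.901 on day 5. Every treated library, of either genotype, lay below every day 0 library. The fall was 4.58-fold on day 1, 10.3-fold on day 2 and 6.41-fold on day 5 in wild type, with log2 changes of -2.20 (SE 0.30), -3.37 (SE 0.35) and -2.68 (SE 0.33). In knockout the log2 changes were -2.58, -3.44 and -2.23, and -2.91 on day 2 without the library labelled PKR KO day 2 replicate 1. Adjusted p-values by edgeR were 1.54e-05, 4.08e-07 and 4.35e-06 in wild type, and the calls on all 3 days in both genotypes were kept under every alternative run.

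T cell markers were lower beside Cd40lg. Their summed level was 299 and 264 in the wild-type day 0 libraries, then 172 and 192 on day 1, 61.8 and 67.0 on day 2, and finally 111 and 104 on day 5. In knockout the sums were 279 and 294, then 150.3 and 130.3, 38.0 and 77.2, and finally 102 and 131 on the same days. On day 2, 13 of 13 were called lower in each genotype, with a median log2 change of -2.30 in wild type and -2.41 in knockout, and 0 of 13 were at 0 in any group. Without the library labelled PKR KO day 2 replicate 1 the knockout median was -1.92, with 13 of 13 called lower. Beside these medians the log2 change of Cd40lg was -3.37 and -3.44, and on day 1 it was -2.20 in wild type beside a marker median of -0.68. The part of the markers in the Cd40lg changes was not tested.

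Fasl, the death ligand of cytotoxic T and NK cells (chr1:161780689-161788495, minus strand), stood at 2.36 and 1.53 on day 0, then 0.978 and 1.17 on day 1, 0.379 and 0.620 on day 2, and finally 1.35 and 1.17 on day 5 in wild type. In knockout it stood at 2.79 and 2.15 on day 0, then 1.30 and 0.862 on day 1, 0.529 and 0.863 on day 2, and finally 0.928 and 1.02 on day 5. The day 2 libraries lay below all day 0 libraries in both genotypes. On day 2 Fasl changed by -1.92 on the log2 scale (SE 0.31, adjusted p = 6.34e-05) in wild type and -1.82 on the log2 scale (SE 0.30, adjusted p = 7.06e-05) in knockout (-1.61 without the library labelled PKR KO day 2 replicate 1). These calls were kept under every alternative run. NK and cytotoxic cell markers (8 genes) were called lower in 6 of 8 cases in wild type and 7 of 8 in knockout on day 2 (8 of 8 without that library). Their summed level went from 100.2 and 75.1 to 62.2 and 61.9 in wild type and from 115 and 103 to 63.0 and 58.8 in knockout. On day 1 the sum was 109.5 and 90.7 in wild type and 86.8 and 84.4 in knockout, and Fasl was called lower in both. The wild-type day 1 change of Fasl was -0.84 on the log2 scale (SE 0.28, adjusted p = 0.0199 by edgeR), not kept under every alternative. On day 5 the sum was 66.1 and 54.4 in wild type and 51.0 and 57.1 in knockout. The part of these markers in the Fasl changes was not tested. Its receptor Fas (chr19:34290680-34327772, plus strand) held 3.48 and 3.48 on day 0, then 4.70 and 4.06 on day 1, 1.81 and 1.89 on day 2, and finally 2.28 and 2.34 on day 5 in wild type. Knockout levels of Fas were 3.51 and 4.10 on day 0, then 4.17 and 3.97 on day 1, 1.79 and 2.74 on day 2, and finally 1.62 and 2.55 on day 5. Fas fell on day 2, with a change of -0.91 on the log2 scale (SE 0.22, adjusted p = 0.00219) in wild type and of -0.74 on the log2 scale (SE 0.22, adjusted p = 0.00822) in knockout (-0.56 without the library labelled PKR KO day 2 replicate 1). The wild-type call was kept under every alternative run. In knockout the Fas call ended without knockout day 0 replicate 2 (adjusted p = 0.0697) or the library labelled PKR KO day 2 replicate 1 (0.0689), with a range of 0.000754 to 0.0697.

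Tnfsf8 and Tnfsf14 also fell on day 2 in both genotypes. Tnfsf8, the ligand CD30L of Tnfrsf8, had 2.66 and 2.46 on day 0, then 2.23 and 1.91 on day 1, 0.748 and 0.718 on day 2, and finally 1.69 and 1.52 on day 5 in wild type. In knockout it had 2.67 and 3.02 on day 0, then 1.77 and 1.37 on day 1, 0.479 and 1.24 on day 2, and finally 1.21 and 1.66 on day 5. Its day 2 libraries were below its day 0 libraries, and the change was -1.80 on the log2 scale (SE 0.30, adjusted p = 0.000173) in wild type and -1.72 on the log2 scale (SE 0.30, adjusted p = 0.000220) in knockout (-1.28 without the library labelled PKR KO day 2 replicate 1). Tnfsf14, which encodes LIGHT, a ligand of both Tnfrsf14 and Ltbr, had wild-type levels of 3.48 and 2.69 on day 0, then 3.16 and 2.32 on day 1, 0.810 and 1.17 on day 2, and finally 1.91 and 1.82 on day 5. The knockout libraries held 3.27 and 2.37 on day 0, then 2.83 and 2.16 on day 1, 0.864 and 1.67 on day 2, and finally 1.37 and 1.58 on day 5. The day 2 change of Tnfsf14 was -1.62 on the log2 scale (SE 0.28, adjusted p = 0.000161) in wild type and -1.15 on the log2 scale (SE 0.28, adjusted p = 0.00254) in knockout (-0.85 without that library). Tnfsf11, the ligand RANKL of Tnfrsf11a, was lower still, between 0.0463 and 0.589, and its day 2 log2 change was -2.51 in wild type and -3.01 in knockout (-3.14 without that library), with adjusted p-values of 0.000243 and 0.000138 by edgeR. The day 2 calls of these 3 ligands were kept under every alternative run. Tnfsf11 was thus low on the day after its receptor Tnfrsf11a had its highest group mean.

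The lymphotoxin genes flank Tnf on chromosome 17, in the order Ltb, Tnf, Lta within chr17:35194523-35205351. Lymphotoxin alpha and beta form a membrane heterotrimer that acts through Ltbr. Ltb (chr17:35194523-35196305, plus strand) had the widest range of any member in absolute terms, with 108 and 70.0 on day 0, then 48.9 and 47.1 on day 1, 18.1 and 16.2 on day 2, and finally 43.9 and 36.3 on day 5 in wild type. In knockout its libraries held 92.7 and 67.5 on day 0, then 39.2 and 34.0 on day 1, 10.8 and 15.2 on day 2, and finally 46.7 and 47.7 on day 5. Each treated library lay below each day 0 library of both genotypes, and day 2 was the lowest day. The day 2 change was -2.38 on the log2 scale (SE 0.21, adjusted p = 6.91e-07) in wild type and -2.62 on the log2 scale (SE 0.22, adjusted p = 2.50e-07) in knockout (-2.49 without the library labelled PKR KO day 2 replicate 1). Both calls were kept under every alternative run. Lta (chr17:35203165-35205351, minus strand) went from 4.54 and 3.82 to 5.42 and 5.59 between days 0 and 1 in wild type, and from 3.60 and 4.21 to 6.59 and 5.18 in knockout. It was not called on day 1 (adjusted p = 0.227 and 0.0878 by edgeR). On day 2 it held 1.55 and 2.38 in wild type and 1.19 and 2.71 in knockout, and it fell, with changes of -1.07 on the log2 scale (SE 0.28, adjusted p = 0.00528) in wild type and -0.99 on the log2 scale (SE 0.29, adjusted p = 0.00859) in knockout. Without the library labelled PKR KO day 2 replicate 1 the knockout change was -0.62 and was not called. The wild-type call of Lta ended without wild-type day 2 replicate 1 (adjusted p = 0.0702), with a range of 1.54e-06 to 0.0702. In knockout the Lta call ended without knockout day 0 replicate 2 (adjusted p = 0.0644) or the library labelled PKR KO day 2 replicate 1 (0.0628), with a range of 8.57e-06 to 0.0644. On day 1, of these 3 neighbours, Tnf rose, Ltb fell and Lta was not called.

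Ltbr, the lymphotoxin beta receptor (chr6:125306571-125313885, minus strand), had wild-type levels of 1.96 and 1.53 on day 0, then 2.64 and 1.44 on day 1, 1.74 and 1.61 on day 2, and finally 2.95 and 2.70 on day 5. In knockout it had 1.91 and 1.38 on day 0, then 2.33 and 2.92 on day 1, 1.26 and 1.499 on day 2, and finally 2.16 and 2.34 on day 5. It rose from day 2 to day 5 over both genotypes by 0.73 on the log2 scale (SE 0.18, adjusted p = 0.00278), a call kept under every alternative run. It was also called higher on day 5 in wild type, with a change of 0.70 on the log2 scale (SE 0.25, adjusted p = 0.0309), and on day 1 in knockout, with 0.67 on the log2 scale (SE 0.25, adjusted p = 0.0389). The former call ended without wild-type day 0 replicate 2 (adjusted p = 0.184), wild-type day 5 replicate 1 (0.117) or wild-type day 5 replicate 2 (0.0906), and also by limma on FPKM (0.0591), with a range of 0.00762 to 0.184, and the latter without knockout day 0 replicate 2 (adjusted p = 0.269) or knockout day 1 replicate 2 (0.277), and also with the sum of all transcripts (0.0511), with a range of 0.0134 to 0.277. The 2 wild-type day 1 libraries differed, with 2.64 in replicate 1 and 1.44 in replicate 2. The same libraries differed in Tnfrsf1a (7.68 and 3.88) and Tnfrsf1b (18.8 and 12.2), in the sum of 8 monocyte and macrophage markers (458 and 255) and in the sum of 10 neutrophil markers (1995 and 923), with replicate 2 lower each time. The part of these cells in the receptor values was not tested.

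Among receptors, Cd27, Cd40, Fas, Tnfrsf18, Tnfrsf1b, Tnfrsf21, Tnfrsf22, Tnfrsf25 and Tnfrsf26 fell on day 2 in both genotypes. Cd27, a costimulatory receptor of T cells (chr6:125232622-125237010, minus strand), stood at 14.4 and 10.6 on day 0, then 9.09 and 9.62 on day 1, 3.28 and 3.51 on day 2, and finally 6.37 and 6.96 on day 5 in wild type. The knockout values were 11.4 and 11.4 on day 0, then 7.52 and 7.62 on day 1, 2.58 and 4.61 on day 2, and finally 5.25 and 8.65 on day 5. Each day 2 library lay below each library of days 0 and 1, and the day 2 change was -1.88 on the log2 scale (SE 0.25, adjusted p = 2.28e-05) in wild type and -1.66 on the log2 scale (SE 0.25, adjusted p = 6.32e-05) in knockout (-1.39 without the library labelled PKR KO day 2 replicate 1). Its ligand Cd70 stood at 0.0521 and 0.0183 in wild type on day 0 and at 0.0385 and 0.0462 on day 1. In knockout it held 0.0284 and 0 on day 1, and in the other groups it was at 0. It had at most 3 fragments in any library. Tnfrsf25, the death-domain receptor DR3 of T cells (chr4:152116343-152120111, plus strand), held 2.96 and 2.171 on day 0, then 1.83 and 1.59 on day 1, 0.641 and 0.827 on day 2, and finally 0.917 and 1.17 on day 5 in wild type. In knockout it held 2.45 and 1.65 on day 0, then 1.64 and 1.57 on day 1, 0.284 and 0.679 on day 2, and finally 0.975 and 1.29 on day 5. On day 2 Tnfrsf25 changed by -1.78 on the log2 scale (SE 0.31, adjusted p = 0.000119) and -2.08 on the log2 scale (SE 0.33, adjusted p = 4.79e-05) (-1.68 without that library), the day after its ligand Tnfsf15 had its highest group means. The day 2 calls of Cd27 and Tnfrsf25 were kept under every alternative run.

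Tnfrsf26, encoded beside the decoy TRAIL receptors Tnfrsf22 and Tnfrsf23 (chr7:143607663-143627953, minus strand), had wild-type levels of 4.77 and 4.15 on day 0, then 3.12 and 3.22 on day 1, 1.98 and 2.02 on day 2, and finally 2.29 and 2.45 on day 5. Knockout libraries had 4.16 and 5.79 on day 0, then 2.52 and 2.46 on day 1, 2.07 and 1.64 on day 2, and finally 1.84 and 2.24 on day 5. It was below day 0 in every treated library, and the calls were -1.15 on the log2 scale (SE 0.17, adjusted p = 2.43e-05) in wild type and -1.42 on the log2 scale (SE 0.17, adjusted p = 2.26e-06) in knockout on day 2 (-1.69 without the library labelled PKR KO day 2 replicate 1). Its neighbour Tnfrsf22 (0.170 to 0.960 adjusted FPKM) changed by -1.82 and -1.45 on the log2 scale on day 5 (adjusted p = 3.66e-05 and 0.000341 by edgeR), while Tnfrsf23 (0.0785 to 0.279) was not called against day 0. Tnfrsf18, the receptor GITR of regulatory T cells, next to Tnfrsf4 within chr4:156013856-156028895, ranged from 2.95 to 11.0. Its day 2 log2 change was -1.11 in wild type and -0.96 in knockout (adjusted p = 0.000427 and 0.00146 by edgeR), and -0.78 in knockout without that library. The named calls of Tnfrsf26, Tnfrsf22 and Tnfrsf18 were kept under every alternative run.

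Cd40, the receptor of Cd40lg on B cells, dendritic cells and macrophages (chr2:165055627-165072948, plus strand), stood at 9.02 and 7.95 on day 0, then 7.02 and 7.85 on day 1, 5.003 and 5.10 on day 2, and finally 5.84 and 4.61 on day 5 in wild type. In knockout it stood at 8.497 and 7.80 on day 0, then 9.81 and 5.88 on day 1, 3.40 and 5.46 on day 2, and finally 4.13 and 5.33 on day 5. The day 2 and day 5 libraries lay below the day 0 libraries, and on day 1 the wild-type libraries lay below day 0 and the knockout libraries on both sides of it. The day 2 change was -0.75 on the log2 scale (SE 0.24, adjusted p = 0.0217) in wild type and -0.88 on the log2 scale (SE 0.24, adjusted p = 0.00880) in knockout (-0.66 without the library labelled PKR KO day 2 replicate 1). The wild-type call ended without wild-type day 0 replicate 1 (adjusted p = 0.108), wild-type day 2 replicate 1 (0.0955) or wild-type day 2 replicate 2 (0.0948), with a range of 9.90e-07 to 0.108. In knockout the Cd40 call ended without knockout day 0 replicate 1 (adjusted p = 0.0574), with a range of 4.83e-09 to 0.0574. On the same scale the wild-type day 2 change of its ligand Cd40lg was -3.37; the difference between the 2 genes was not tested. Conventional dendritic cell markers were called lower in 8 of 8 cases on day 2 in each genotype, and Cd209a was at 0 in the knockout day 2 group. Their summed level in wild type went from 23.7 and 22.4 to 7.92 and 7.67 between days 0 and 2. On day 1, when Cd40 was not called, 7 of these 8 markers were called lower in each genotype. On day 5 Cd40 was called lower in both genotypes, in calls not kept under every alternative. Of the dendritic cell markers, 1 was then called lower and 1 higher in wild type, and 2 lower and 1 higher in knockout. On day 2 B cell markers were called lower in 4 of 10 cases in wild type and 7 of 10 in knockout (6 of 10 without the library labelled PKR KO day 2 replicate 1). Their part in the Cd40 change was not tested.

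BAFF (Tnfsf13b) and APRIL (Tnfsf13) act on B lineage cells through 3 receptors: Tnfrsf13c (BAFF receptor), which binds BAFF alone and supports mature B cells, Tnfrsf13b (TACI), and Tnfrsf17 (BCMA), known from plasma cells. The 3 receptors followed different courses. Tnfrsf17 (chr16:11313812-11320074, plus strand) had wild-type levels of 0.619 and 0.340 on day 0, then 0.517 and 0.143 on day 1, 3.17 and 1.75 on day 2, and finally 2.11 and 2.04 on day 5. In knockout the levels were 0.355 and 0.586 on day 0, then 0.176 and 0.200 on day 1, 4.44 and 1.76 on day 2, and finally 1.57 and 2.20 on day 5. All 8 libraries of days 2 and 5 lay above all 8 of days 0 and 1, although the day 2 replicates differed from each other by more than 1.5 times in each genotype. The day 2 change was 2.38 on the log2 scale (SE 0.53, adjusted p = 0.00193) in wild type and 2.73 on the log2 scale (SE 0.54, adjusted p = 0.000666) in knockout (1.83 without the library labelled PKR KO day 2 replicate 1), and both calls were kept under every alternative run. On day 5 the change was 2.15 on the log2 scale (SE 0.53, adjusted p = 0.00504) and 2.01 on the log2 scale (SE 0.56, adjusted p = 0.00864). The wild-type call ended without wild-type day 0 replicate 2 (adjusted p = 0.0672), with a range of 7.89e-08 to 0.0672. The knockout call ended without knockout day 0 replicate 1 (adjusted p = 0.0856) or knockout day 5 replicate 2 (0.0569), with a range of 1.92e-06 to 0.0856.

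Plasma cell markers (8 genes) had summed levels of 146 and 119 on day 0, then 275 and 243 on day 1, 1245 and 949 on day 2, and finally 278 and 356 on day 5 in wild type. In knockout the sums were 117 and 137, then 218 and 221, 1401 and 815, and finally 193 and 252 on the same days. On day 2, 8 of 8 were called higher in each genotype, and in both genotypes the library with the higher Tnfrsf17 level also had the higher marker sum. The marker sums were lower on day 5 than on day 2, while Tnfrsf17 was not called in that step (log2 change -0.47, SE 0.33, adjusted p = 0.263 by edgeR). The part of the markers in the Tnfrsf17 values was not tested.

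Tnfrsf13b (chr11:61126755-61149372, plus strand) stood at 23.3 and 18.1 on day 0, then 29.8 and 33.8 on day 1, 45.0 and 39.5 on day 2, and finally 19.4 and 16.1 on day 5 in wild type. The knockout values were 19.8 and 19.1 on day 0, then 30.9 and 31.9 on day 1, 49.9 and 36.2 on day 2, and finally 16.1 and 17.7 on day 5. It was highest on day 2 and back in the day 0 range or below it on day 5. The day 2 change was 1.03 on the log2 scale (SE 0.15, adjusted p = 2.53e-05) in wild type and 1.15 on the log2 scale (SE 0.15, adjusted p = 6.68e-06) in knockout (0.81 without the library labelled PKR KO day 2 replicate 1). Both calls were kept under every alternative run. On day 1 it had risen by 0.62 on the log2 scale (SE 0.15, adjusted p = 0.00290) in wild type. This call ended without wild-type day 0 replicate 2 (adjusted p = 0.0696), with a range of 1.69e-05 to 0.0696. In knockout the day 1 change was 0.69 on the log2 scale (SE 0.15, adjusted p = 0.00134), kept under every alternative run. Tnfrsf13c (chr15:82221745-82224339, minus strand) had 41.5 and 35.8 on day 0, then 47.6 and 65.7 on day 1, 45.1 and 44.5 on day 2, and finally 27.6 and 22.0 on day 5 in wild type. In knockout it had 41.8 and 39.7 on day 0, then 44.8 and 47.0 on day 1, 47.0 and 39.2 on day 2, and finally 25 and 24.2 on day 5. On day 1 it was called higher in wild type alone, by 0.55 on the log2 scale (SE 0.15, adjusted p = 0.00508 by edgeR), not kept under every alternative. It fell on day 5, with a change of -0.64 on the log2 scale (SE 0.15, adjusted p = 0.00210) in wild type and -0.73 on the log2 scale (SE 0.15, adjusted p = 0.000605) in knockout. Both calls were kept under every alternative run. On day 5, 8 of 10 B cell markers in wild type and 9 of 10 in knockout were called lower. Between days 0 and 5 their sum went from 1101 and 943 to 717 and 587 in wild type, and from 1052 and 1052 to 572 and 641 in knockout. On day 2, when Tnfrsf13c was not called in either genotype, the sum was 781 and 701 in wild type and 689 and 601 in knockout. The part of the B cell markers in the Tnfrsf13c fall was not tested. On day 2 the libraries of Tnfrsf13b and Tnfrsf13c overlapped, whereas on day 0 Tnfrsf13c was the higher of the 2 without overlap.

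The ligands of this set were scarce. Tnfsf13b had 0.0874 and 0.184 on day 0, then 0.146 and 0.0435 on day 1, 0.0677 and 0.0608 on day 2, and finally 0.207 and 0.215 on day 5 in wild type. In knockout it had 0.165 and 0.0895 on day 0, then 0.135 and 0.158 on day 1, 0.0776 and 0.05005 on day 2, and finally 0.131 and 0.166 on day 5. It had from 9 to 57 fragments a library, and no comparison with day 0 was called. Tnfsf13 (chr11:69682932-69685784, minus strand) held 1.61 and 1.63 on day 0, then 0.981 and 0.698 on day 1, 1.17 and 0.758 on day 2, and finally 2.24 and 2.96 on day 5 in wild type. Its knockout libraries held 2.32 and 1.67 on day 0, then 0.876 and 1.34 on day 1, 0.909 and 0.547 on day 2, and finally 2.08 and 2.11 on day 5. By group mean it was lowest on days 1 and 2 and highest on day 5. On day 1 it fell, with a change of -0.95 on the log2 scale (SE 0.29, adjusted p = 0.0121) in wild type and -0.85 on the log2 scale (SE 0.29, adjusted p = 0.0260) in knockout. The wild-type day 1 call ended without wild-type day 1 replicate 2 (adjusted p = 0.133), and also by limma on FPKM (0.105), with a range of 0.00171 to 0.133. The knockout call ended without knockout day 0 replicate 1 (adjusted p = 0.207) or knockout day 1 replicate 1 (0.220), and also by limma on FPKM (0.0849), with a range of 0.00505 to 0.220. From day 2 to day 5, over both genotypes, Tnfsf13 rose by 1.49 on the log2 scale (SE 0.22, adjusted p = 1.57e-05) and Tnfsf13b by 1.46 on the log2 scale (SE 0.38, adjusted p = 0.00391), and both calls were kept under every alternative run. Tnfsfm13, the read-through over Tnfsf12 and Tnfsf13, had 1.17 and 1.34 on day 0, then 0.862 and 0.533 on day 1, 0.893 and 0.750 on day 2, and finally 1.75 and 2.11 on day 5 in wild type. Its knockout levels were 1.89 and 1.33 on day 0, then 0.718 and 1.04 on day 1, 0.867 and 0.534 on day 2, and finally 1.67 and 1.76 on day 5. Tnfsfm13 rose over the same step by 1.26 on the log2 scale (SE 0.20, adjusted p = 4.70e-05); it is not an independent measurement of Tnfsf13. The receptors Tnfrsf13b and Tnfrsf13c fell over the step in which these ligands rose, with changes of -1.30 and -0.83 on the log2 scale (adjusted p = 1.59e-08 and 2.89e-06 by edgeR).

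**Figure D4:**
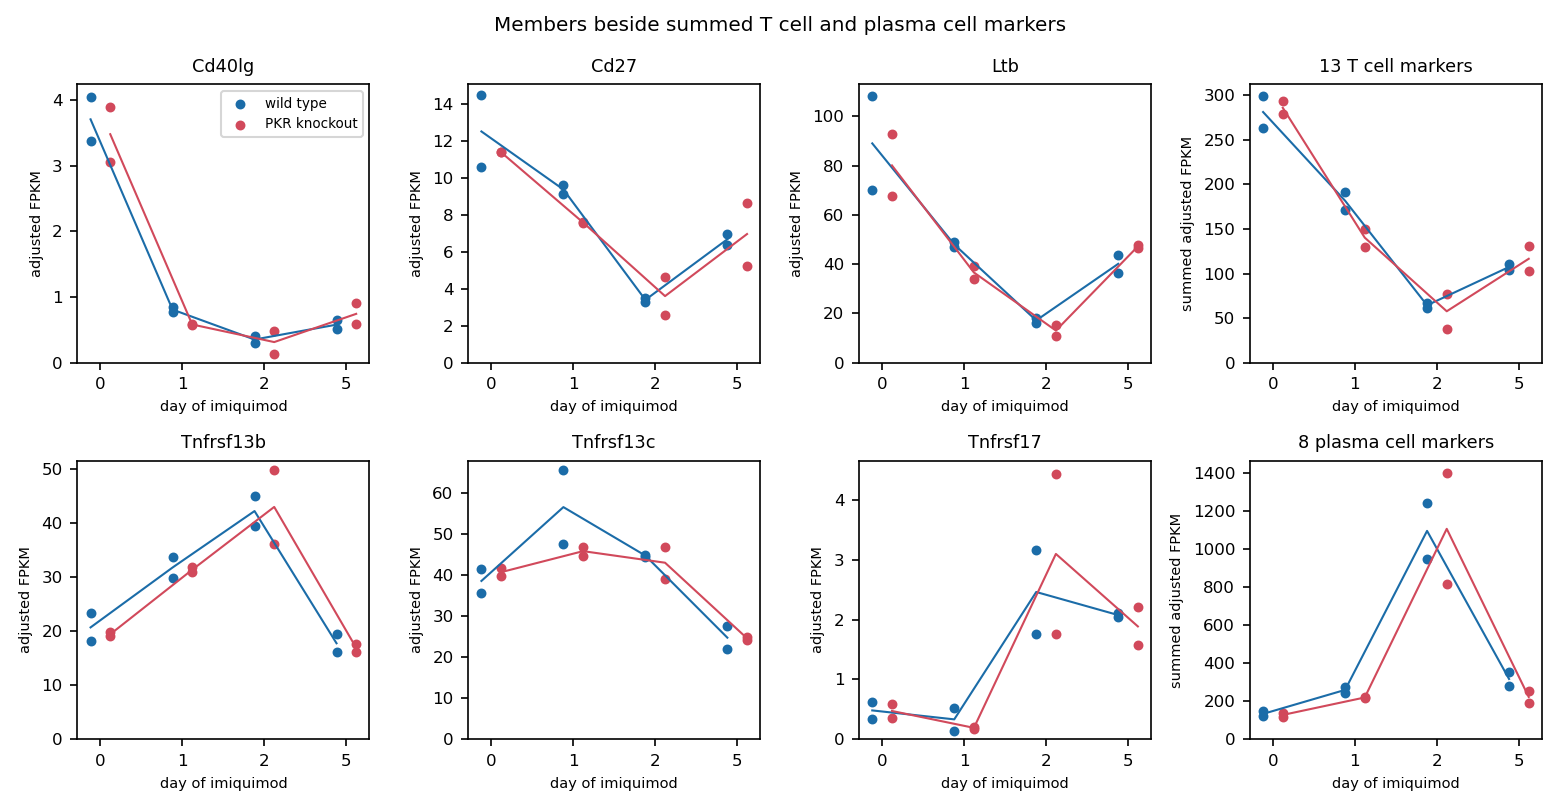
Adjusted FPKM (vertical axes, from 0) by day of imiquimod for Cd40lg, Cd27 and Ltb beside the summed level of 13 T cell markers (top), and for Tnfrsf13b, Tnfrsf13c and Tnfrsf17 beside the summed level of 8 plasma cell markers (bottom). Points are libraries, wild type in blue and PKR knockout in red, and lines join group means. The top panels are lowest on day 2, Tnfrsf13b and the plasma cell sum are highest on day 2, Tnfrsf13c is lowest on day 5, and Tnfrsf17 remains above its day 0 libraries on day 5.

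On day 5 the receptors Tnfrsf14, Tnfrsf17, Tnfrsf1b and Tnfrsf21 rose in both genotypes. Tnfrsf14, the receptor HVEM that binds LIGHT and the inhibitory receptor BTLA (chr4:154921933-154928077, minus strand), had wild-type levels of 11.9 and 11.3 on day 0, then 11.97 and 8.75 on day 1, 7.66 and 7.82 on day 2, and finally 36.8 and 35.6 on day 5. In knockout the levels were 9.44 and 9.68 on day 0, then 12.5 and 13 on day 1, 7.16 and 10.6 on day 2, and finally 55.5 and 49.7 on day 5. The 4 day 5 libraries stood far above the other 12, of which the highest was 13. The day 5 change was 1.64 on the log2 scale (SE 0.16, adjusted p = 2.80e-07) in wild type, a 3.12-fold rise. In knockout it was 2.46 on the log2 scale (SE 0.16, adjusted p = 1.42e-09), a 5.50-fold rise. Both calls were kept under every alternative run. Its ligand Tnfsf14 fell on day 5, with changes of -0.72 in wild type and -0.94 in knockout on the log2 scale (adjusted p = 0.0420 and 0.0111 by edgeR). These Tnfsf14 calls ended in wild type without wild-type day 0 replicate 1 (adjusted p = 0.232), wild-type day 5 replicate 1 (0.128) or wild-type day 5 replicate 2 (0.147), and also by limma on FPKM (0.0641) and with the sum of all transcripts (0.0771), with a range of 0.00424 to 0.232, and in knockout without knockout day 0 replicate 1 (adjusted p = 0.125) or knockout day 5 replicate 1 (0.101), with a range of 0.000163 to 0.125.

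Erythroid markers, like Tnfrsf14, were highest on day 5. The sum of 10 markers was 19.5 and 53.0 on day 0, then 27.1 and 18.5 on day 1, 18.4 and 21.4 on day 2, and finally 494 and 432 on day 5 in wild type. In knockout it was 31.8 and 60.1, then 16.7 and 23.1, 11.1 and 22.3, and finally 836 and 659.7 on the same days. On day 5, 10 of 10 were called higher in each genotype, 0 were at 0 in any group, and the knockout day 5 sums lay above the wild-type ones, as the Tnfrsf14 levels did. On day 0 the erythroid sums differed between replicates by more than the Tnfrsf14 levels did, with 19.5 and 53.0 beside 11.9 and 11.3 in wild type. On day 1 in knockout Tnfrsf14 was called higher, while 1 of 10 erythroid markers was called lower and 0 higher. That Tnfrsf14 call ended by DESeq2 (adjusted p = 0.0611), with the protein-coding transcript (0.0645 by edgeR) and with the replicate block (0.0501 by edgeR). It also ended whichever knockout library of days 0 and 1 was left out. In wild type on day 2 Tnfrsf14 was called lower (log2 change -0.59, adjusted p = 0.00682 by edgeR), as was 1 of 10 erythroid markers. Proliferation marker sums on day 5 were also higher in knockout (561 and 439) than in wild type (377 and 402). The part of erythroid cells in the Tnfrsf14 values was not tested.

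Tnfrsf1a and Tnfrsf1b are the 2 receptors of TNF, the death-domain receptor TNFR1 of most cells and the TRAF-binding receptor TNFR2 of leukocytes. Tnfrsf1b (chr4:145213463-145246870, minus strand) was the more abundant in every library, from 8.94 to 24.6 against 3.46 to 8.41 for Tnfrsf1a. In wild type it held 16.1 and 14.3 on day 0, then 18.8 and 12.2 on day 1, 11.0 and 9.94 on day 2, and finally 23.1 and 20 on day 5. In knockout it held 16.7 and 13.6 on day 0, then 15.1 and 17.7 on day 1, 8.94 and 9.34 on day 2, and finally 20.6 and 24.6 on day 5. Day 2 was its lowest day and day 5 its highest, and from day 2 to day 5 it rose by 1.17 on the log2 scale (SE 0.12, adjusted p = 5.74e-07) over both genotypes, kept under every alternative run. Against day 0 the day 5 change was 0.50 on the log2 scale (SE 0.17, adjusted p = 0.0269) in wild type. This call ended without wild-type day 0 replicate 2 (adjusted p = 0.140), wild-type day 5 replicate 1 (0.152) or wild-type day 5 replicate 2 (0.0552), and also by limma on FPKM (0.0682) and with the sum of all transcripts (0.0517), with a range of 0.00206 to 0.152. In knockout it was 0.57 on the log2 scale (SE 0.17, adjusted p = 0.0118). That call ended without knockout day 0 replicate 2 (adjusted p = 0.112) or knockout day 5 replicate 2 (0.0982), with a range of 0.000242 to 0.112. On day 1, when Tnf rose, neither receptor was called. The log2 differences of Tnfrsf1b were 0.02 in wild type and 0.11 in knockout, and those of Tnfrsf1a were -0.39 and 0.12.

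Tnfrsf21, the death-domain receptor DR6 (chr17:43016555-43089189, plus strand), had 2.64 and 2.97 on day 0, then 3.31 and 1.98 on day 1, 1.56 and 1.72 on day 2, and finally 4.21 and 4.36 on day 5 in wild type. Knockout libraries held 2.67 and 2.69 on day 0, then 2.75 and 3.21 on day 1, 1.48 and 1.46 on day 2, and finally 5.24 and 4.55 on day 5. Its day 5 libraries were above, and its day 2 libraries below, all others. The day 5 change was 0.61 on the log2 scale (SE 0.18, adjusted p = 0.0120) in wild type. The call ended without wild-type day 0 replicate 1 (adjusted p = 0.0740) or wild-type day 5 replicate 2 (0.0880), with a range of 0.00226 to 0.0880. In knockout the change was 0.87 on the log2 scale (SE 0.18, adjusted p = 0.000824), kept under every alternative run. Monocyte and macrophage markers were called higher in 5 of 8 cases in wild type and 3 of 8 in knockout on day 5. Those of red pulp macrophages were called higher in 2 of 8 and 4 of 8. Between days 2 and 5 the monocyte and macrophage sum went from 207 and 225 to 524 and 479 in wild type, and from 173 and 199 to 371 and 441 in knockout, lowest on day 2 in both genotypes as Tnfrsf1b and Tnfrsf21 were. On day 0 it was 365 and 371 in wild type and 444 and 433 in knockout, so that day 5 was the highest day of the sum in wild type but not in knockout. Their part in these receptors was not tested.

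**Figure D5:**
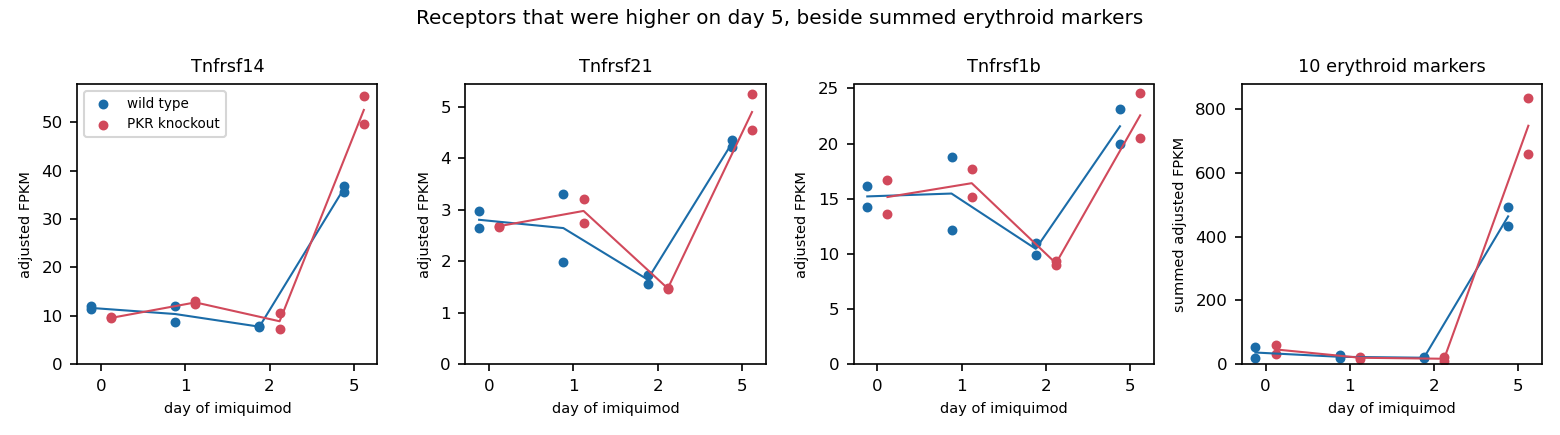
Adjusted FPKM (vertical axes, from 0) of Tnfrsf14, Tnfrsf21 and Tnfrsf1b by day of imiquimod, beside the summed level of 10 erythroid markers. Points are libraries, wild type in blue and PKR knockout in red, and lines join group means. The day 5 libraries are the highest in each panel, and for Tnfrsf14 and the erythroid sum the knockout day 5 libraries lie above the wild-type ones.

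Several members were not called where their partners were. Tnfsf9, the ligand of Tnfrsf9, ranged from 0.242 to 0.628 and was not called in any comparison of days, with day 1 log2 changes of 0.46 in wild type and -0.22 in knockout. Tnfsf4, the ligand OX40L of Tnfrsf4, had 1 to 16 fragments a library and was called only from day 1 to day 2 (-1.28, SE 0.49, adjusted p = 0.0424 by edgeR). This call ended without each of the 8 libraries of days 1 and 2 except the library labelled PKR KO day 2 replicate 1, with adjusted p-values from 0.0591 to 0.159. It also ended by DESeq2 (0.158), with no low-count filter (0.0586) and with the sum of all transcripts (0.0672). Tnfsf18, the ligand of Tnfrsf18, ranged from 0.0245 to 0.255 and was not called. Tnfsf12 (TWEAK, 0.235 to 0.893) and its receptor Tnfrsf12a (0.340 to 1.11) were not called either, and neither was Tnfrsf10b, the mouse TRAIL receptor with a death domain (0.0896 to 0.367), whose ligand Tnfsf10 rose on day 1. The antisense RNA Tnfsf13os (0.0975 to 0.568) had no call, with a step from day 2 to day 5 of 0.98 (adjusted p = 0.0526) in the direction of Tnfsf13. Tnfrsf19, the receptor TROY (0.148 to 0.533), fell on day 5 in knockout with a change of -0.98 on the log2 scale (SE 0.36, adjusted p = 0.0362), a call that ended without knockout day 0 replicate 2 (adjusted p = 0.242) or knockout day 5 replicate 1 (0.391), and also by DESeq2 (0.0579) and with the sum of all transcripts (0.0879), with a range of 0.00529 to 0.391.

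Stepwise comparisons over both genotypes showed how far the family moved between days. From day 1 to day 2, 29 of 41 members fell and 2 rose (70.7% and 4.88%), against 20.5% and 21.9% of all genes, and without the library labelled PKR KO day 2 replicate 1 27 fell and 2 rose (65.9% and 4.88%), against 19.8% and 18.7%. On the deposited FPKM scale with limma the split over 28 tested members was 23 lower and 1 higher, where the median of all genes stood at -0.28. All genes there split 6544 lower and 1553 higher, so a split to the lower side was not particular to the members. By role, 11 of 17 ligands and 18 of 23 receptors fell. Tnfrsf17 rose most over this step, by 3.47 on the log2 scale (SE 0.41, adjusted p = 9.75e-06), and the 7 largest falls were -1.79 in Tnfsf11, -1.62 in Tnfrsf4, -1.57 in Tnfrsf9, -1.53 in Lta, -1.49 in Ltb, -1.46 in Tnfrsf25 and -1.44 in Tnf on the log2 scale. From day 2 to day 5, 19 members rose and 4 fell (46.3% and 9.76%), against 22.8% and 22.9% of all genes, and without that library 16 rose and 4 fell (39.0% and 9.76%), against 21.8% and 19.3%. The rises were led by Tnfrsf14 (2.40), Tnfsf11 (1.91), Tnfrsf21 (1.56) and Ltb (1.54). Tnfsf10, Tnfsf15, Tnfrsf13b and Tnfrsf13c were the 4 that fell. Of these, Tnfsf15 was not called without knockout day 2 replicate 2 (adjusted p = 0.0891), with a range of 0.00615 to 0.0891, and the call of Tnfsf10 (adjusted p = 0.0481 by edgeR) ended without wild-type day 2 replicate 1 (adjusted p = 0.212), wild-type day 5 replicate 1 (0.0825), wild-type day 5 replicate 2 (0.154), the library labelled PKR KO day 2 replicate 1 (0.108), knockout day 2 replicate 2 (0.110), knockout day 5 replicate 1 (0.142) or knockout day 5 replicate 2 (0.0847), and also by DESeq2 (0.119), with DESeq2 size factors (0.0668), with no low-count filter (0.168), by limma on FPKM (0.112), with the protein-coding transcript (0.0657) and with the compared groups alone (0.0933), with a range of 0.0324 to 0.212.

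Between genotypes 0 of 41 members were called by edgeR's quasi-likelihood test on any of the 4 days, in the average over days, or in the 3 tests of whether the change from day 0 differed. All genes gave few calls too: 0.0160% on day 0, 0.176% on day 1, 0% on day 2, 0.00532% on day 5 and 0.0266% in the average, and 0.160% for the difference in day 1 change and 0% for those of days 2 and 5. At an unadjusted p under 0.05 there were 0 members on day 0, 2 on day 1, 0 on day 2, 1 on day 5, 3 in the average, and 2, 0 and 1 for the differences in change. DESeq2 and limma on FPKM also called 0 members in each of these comparisons, and edgeR without a filter on low counts called Tnfrsf14 in 2 of them.

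Tnfrsf14 had the smallest p of any member on day 5. Knockout libraries stood at 55.5 and 49.7 and wild-type libraries at 36.8 and 35.6, without overlap, while on day 0 the order was the reverse (9.44 and 9.68 against 11.9 and 11.3). The day 5 difference was 0.54 on the log2 scale (SE 0.15, adjusted p = 0.353 by edgeR), and the difference in change from day 0 was 0.82 (SE 0.22, adjusted p = 0.505). Without the filter on low counts these were 0.53 (adjusted p = 0.0280) and 0.82 (adjusted p = 0.0187), the only calls of a member between genotypes under any alternative. Over the alternatives the log2 differences ran from 0.46 to 0.61 and from 0.74 to 0.89, with adjusted p from 0.0280 to 1 and from 0.0187 to 0.996. Erythroid marker sums differed between the same libraries (836 and 659.7 in knockout and 494 and 432 in wild type), and their part was not tested.

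On day 1 the members with the smallest p between genotypes were Tnfsf10 (log2 difference -0.32, SE 0.14, adjusted p = 0.494), Tnfrsf26 (-0.35, adjusted p = 0.535) and Tnfrsf13c (-0.30, adjusted p = 0.535) by edgeR. All 3 were lower in both knockout libraries than in both wild-type ones, and none passed the test. On day 0 they were Tnfrsf4 (-0.47), Tnfrsf14 (-0.28) and Tnfrsf19 (0.55, from 0.260 and 0.350 in wild type and 0.372 and 0.533 in knockout), with adjusted p-values from 0.802 to 0.814. On day 2 they were Ltb (-0.40), Tnfrsf25 (-0.61) and Tnfrsf19 (0.59, from 0.174 and 0.225 and 0.197 and 0.406), each with an adjusted p of 0.994. Over the alternatives, which include leaving out the library labelled PKR KO day 2 replicate 1, these differences ran from -0.65 to -0.21 for Ltb, from -1.37 to -0.16 for Tnfrsf25 and from -0.03 to 0.97 for Tnfrsf19. On day 5 Tnfsf4 (-1.67, from 0.0413 and 0.159 in wild type and 0.0141 and 0.0496 in knockout) and Tnfsf11 (-0.74, from 0.238 and 0.393 and 0.163 and 0.218) followed Tnfrsf14. Averaged over days, Tnfrsf18 stood at -0.26 (SE 0.11, adjusted p = 0.834 by edgeR). Its wild-type levels were 10.7 and 6.74 on day 0, then 10.2 and 11.0 on day 1, 4.39 and 3.69 on day 2, and finally 6.22 and 5.68 on day 5. In knockout they were 7.98 and 6.53 on day 0, then 9.08 and 7.48 on day 1, 2.95 and 4.49 on day 2, and finally 4.73 and 4.97 on day 5. The next in the average were Tnfrsf14 (0.19, adjusted p = 0.834) and Tnfsf11 (-0.54, adjusted p = 0.860). For the difference in change from day 0, the smallest p on day 1 were those of Tnfrsf14 (0.58, adjusted p = 0.277), Tnfrsf26 (-0.51, adjusted p = 0.364) and Tnfrsf13c (-0.38, adjusted p = 0.438). On day 2 they were those of Tnfrsf14 (0.48), Tnfsf13 (-0.70) and Tnfsf9 (-0.78), each with an adjusted p of 1. On day 5 Fasl (-0.73, adjusted p = 0.684) and Tnfrsf4 (0.60, adjusted p = 0.707) came after Tnfrsf14. With 2 libraries a group, a p that misses the threshold does not show that the genotypes had the same level.

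The 41 genes of a list of TNF receptor signalling (adaptors, kinases, death effectors, NF-kB subunits and inhibitors, and the shedding proteases) were all tested. On day 1, 6 rose and 4 fell in wild type (14.6% and 9.76%, median log2 change -0.03), against 23.3% and 21.4% of all genes. In knockout 11 rose and 8 fell (26.8% and 19.5%, median -0.04), against 22.1% and 19.5%. The largest day 1 rises in wild type were in Mlkl, the pore-forming effector of necroptosis (log2 change 1.82, SE 0.26, adjusted p = 2.49e-05), Traf1, an adaptor of Tnfrsf1b and Tnfrsf9 (log2 change 1.12, SE 0.15, adjusted p = 1.74e-05), Ripk3, the kinase that activates Mlkl (log2 change 0.70, SE 0.12, adjusted p = 0.000117), and Casp8, the apoptotic protease of death receptors (log2 change 0.66, SE 0.12, adjusted p = 0.000234). Mlkl, Traf1 and Ripk3 also led the rises in knockout, with log2 changes of 1.59, 1.139 and 0.84. The falls were in Rel (-0.76), Ikbkb (-0.58), Traf3 (-0.45) and Tab2 (-0.29) in wild type.

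On day 2, 4 of the 41 signalling genes rose and 16 fell in wild type (9.76% and 39.0%, median -0.21), against 23.9% and 21.3% of all genes. In knockout 6 rose and 16 fell (14.6% and 39.0%, median -0.18), against 26.2% and 23%. Without the library labelled PKR KO day 2 replicate 1, 4 rose and 15 fell in knockout (median -0.26). The largest falls in wild type were in Rel, an NF-kB subunit of lymphocytes (log2 change -1.06, SE 0.17, adjusted p = 6.62e-05 by edgeR), and Birc3, the ubiquitin ligase cIAP2 (log2 change -0.88, SE 0.14, adjusted p = 7.71e-05). In knockout these 2 changed by -1.16 and -1.05. On day 5, 5 rose and 19 fell in wild type (12.2% and 46.3%, median -0.30), against 22.4% and 17.0%. In knockout 5 rose and 18 fell (12.2% and 43.9%, median -0.32), against 24.2% and 20.3%. The largest falls were in Nfkbia, the NF-kB inhibitor IkBa (-1.05 in wild type and -1.26 in knockout), and Relb (-0.9962 and -0.87). The largest rises were in Mlkl (1.67 and 1.43), Tab3 (1.01 and 1.35) and Tab1 (0.91 and 1.33), and Adam10, a sheddase of several family members, rose by 0.61 and 0.96. Between genotypes 0 of 41 signalling genes were called on any day by edgeR.

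Of the 170 calls of members in the 8 comparisons of days, 104 were kept under every alternative run and 66 were lost under at least 1, with 0 reversed. Against day 0, the calls kept on day 5 were 7 of 18 in wild type and 7 of 20 in knockout. On day 1 they were 7 of 16 and 8 of 18, and on day 2 they were 17 of 24 and 17 of 20. The 7 wild-type calls kept on day 1 were Cd40lg, Ltb, Tnfrsf11a, Tnfrsf8, Tnfrsf9, Tnfsf10 and Tnfsf15. The day 5 counts of both genotypes and the day 1 count in knockout were lower whenever a library of the compared groups was left out. Such a fit leaves a group with a single library, and calls over all genes were fewer in these comparisons too.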

How the data were processed

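Ribosome-depleted total RNA of spleen cells was sequenced in 16 libraries. Per the submitters' processing notes, reads were handled with bcl2fastq 2.17.1.14, Trimmomatic, HISAT2 and TopHat on mm10. No source used here names the counting program, its annotation or its strand setting. The authors deposited, per transcript and library, a fragment count, an FPM signal scaled to library size, an FPKM value and the transcript length, a size in bases; the ratio of count to FPM gave each library's total. The columns of one table per library were used.

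From the deposited counts, the transcript with the highest mean count was kept for each of 55291 symbols. Genes were filtered with filterByExpr and scaled by TMM, and 18789 were fitted with edgeR 4.0.16 (R 4.3.3) in 1 model of 8 groups, with 8 residual degrees of freedom and a biological coefficient of variation of 13.1%. The robust quasi-likelihood F test was adjusted by Benjamini-Hochberg over these genes, and a call means an adjusted p under 0.05. SE is the log2 change divided by the square root of F. Replicates are separate pools of 2 spleens. Alternatives were DESeq2 1.42.0, edgeR with DESeq2 size factors, no low-count filter, limma 3.58.1 on log2(FPKM + 0.1) for genes with FPKM of at least 1 in 2 libraries, the sum of a gene's transcripts, its protein-coding transcript, a replicate block, the compared groups alone, and each library left out in turn. Leaving out the library labelled PKR KO day 2 replicate 1 from comparisons that do not use it was added after seeing the data. Scripts were tested on simulated data.

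The members, marker lists and signalling list were chosen with earlier results of these data known. Values in every library are given for up to 10 rising and 10 falling members with the largest log2 change against day 0, among those called, with a mean level of at least 1 in the higher group and groups that did not overlap. They are also given for Tnf and the sets of Tnfsf13b, Cd40, Fas and Cd27 with their partners. Between genotypes the 3 members with the smallest p are named where none is called, and of the signalling list up to 4 called genes in each direction. Other members named with values, Tnfsf15, Tnfrsf8, Lta and Tnfsf11 among them, were chosen after their values were seen. Counts fix the precision: a member with few fragments has a wide SE, and floors cover counting error only.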

Additional observations from a re-analysis of the deposited data

How the results depend on the processing

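Of the 170 calls of members between days, DESeq2 lost 9, edgeR with DESeq2 size factors 1, no low-count filter 4, limma on FPKM 16 of 146, the sum of transcripts 17, the protein-coding transcript 2 and the compared groups alone 4. With each library left out in turn, member counts ran from 10 to 13 for wild-type day 5 (main 18), 11 to 14 for knockout day 1 (main 18) and 9 to 15 for knockout day 5 (main 20), and genes called for wild-type day 5 from 4648 to 6078 (main 7408). Limma on FPKM, which lacks the TMM scaling, made 80.3% of wild-type day 1 calls higher over all genes (main 52.1%), 66.2% in knockout (main 53.1%) and 19.2% from day 1 to day 2 (main 51.7%), and moved the median of all genes to -0.23 for knockout against wild type on day 1 and -0.19 for the difference in day 1 change; the cause was not tested.

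Counts of genes called between genotypes moved with most settings, and the cause was not tested. On day 0 (main 3) they were 8 by DESeq2, 64 with no low-count filter, 0 by limma, 0 by the sum of transcripts and 5 without the library labelled PKR KO day 2 replicate 1, and ran from 0 to 58 with a library left out. On day 1 (main 33) they were 151, 437, 7 and 12 under the same 4 settings, 351 in the compared groups alone and 98 without that library, and ran from 4 to 31. On day 2 (main 0) DESeq2 gave 8 and no filter 63, with 1 to 34 when a library was left out. On day 5 (main 1) DESeq2 gave 78, no filter 209 (1 member), limma 0, the compared groups 6 and leaving out that library 12, with a range of 0 to 7. In the average over days (main 5) no filter gave 97, limma 2 and the sum of transcripts 1, with a range of 2 to 29; the compared groups are all groups there, so that setting was not run. For the difference in day 1 change (main 30) DESeq2 gave 199, no filter 484, limma 0, the sum 3, the compared groups 18 and leaving out that library 96, with a range of 0 to 379. For day 2 (main 0) DESeq2 gave 3 and no filter 20, with a range of 0 to 14. For day 5 (main 0) DESeq2 gave 36, no filter 159 (1 member), the compared groups 4 and leaving out that library 7, with a range of 0 to 43. Tnfrsf19, 0.59 higher in knockout on day 2 on the log2 scale without being called, stood at -0.0305 without knockout day 2 replicate 2 and at 0.97 without the library labelled replicate 1.

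Replicate numbers did not pair the libraries: correlations of same-numbered deviations over 28 pairs of groups ran from -0.16 to 0.21 (median 0.0046). With the replicate block, 16 members were called on day 1, 24 on day 2 and 15 on day 5 in wild type, 16, 20 and 19 in knockout, 30 from day 1 to day 2 and 23 from day 2 to day 5. Under it 7 of the 170 calls missed the threshold, that of Tnfsf14 in wild type on day 5 (adjusted p = 0.0502 by edgeR) and that of Tnfsf4 from day 1 to day 2 (0.0504) among them. The block gave 0 genes between genotypes on day 0 and 0 for the difference in day 1 change. Low counts limit Tnfsf4, Tnfsf13b, Tnfsf15 and Tnfsf18, and 2 libraries a group limit every comparison; age, cage and extraction day are not given.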
